A study of Arabidopsis thaliana with 16 samples.

Results

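A set of 9 genes of the heat shock response, 7 of them HSP20-like small heat shock genes, was followed in Arabidopsis thaliana seedlings after oxidative, salt and auxin treatment, out of 13333 genes with a probe set of exactly 1 gene on the array. The members are the HSP20-like genes AT1G53540, AT2G29500, AT1G54050, AT5G51440, AT1G52560, AT5G37670 and AT4G21870, the FKBP-type gene AT5G48570 (ROF2), and HSA32 (AT4G21320). They were matched by locus code or symbol, and each of the 9 has 1 probe set, of that gene alone. The question put to them was how the response to methyl viologen differs from the response to salt in each line.

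Seedlings of the Columbia ecotype were 14 days old, had grown on MS medium in 16 h light and 8 h dark, and were either wild type or carried an overexpressed rice glutaredoxin gene, OsGRX8, and are called the GRX line below. Each line was placed for 3 h in water (the control), 100 µM indole-3-acetic acid (IAA, an auxin), 200 mM NaCl or 25 µM methyl viologen (MV). MV (paraquat) draws electrons away from photosystem I in the light and hands them to oxygen, so that superoxide forms in the chloroplast. Each of the 8 groups has 2 arrays, called biological replicates in the design text, so 16 Affymetrix ATH1 arrays were used. The labels give a single GRX line and name neither its promoter nor the number of transformants behind it, and the level of the rice transgene was not analysed here. No comparison here has a heat treatment.

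Small heat shock proteins are oligomeric chaperones that bind unfolding proteins without using ATP and hold them in a state from which ATP-driven chaperones can refold them. In plants they are sorted into classes by sequence and by compartment, with members in the cytosol, nucleus, mitochondria, chloroplasts, endoplasmic reticulum and peroxisomes. Most are nearly silent in unstressed vegetative tissue and are switched on by heat shock transcription factors when proteins unfold. HSA32 and ROF2 act later in the heat response. HSA32 prolongs the memory of a first heat treatment in Arabidopsis, and ROF2 is a peptidyl-prolyl isomerase linked to acquired thermotolerance.

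All values below are log2 signals as deposited, so a step of 1 is a doubling, and array values are given with replicate 1 first. Differences carry the standard error (SE) of a limma model fitted to all 16 arrays and 22746 probe sets, with p-values adjusted by Benjamini-Hochberg over all probe sets of a comparison and a threshold of 0.05. "Higher", "lower", "rose" and "fell" are used of tests past that threshold unless array values are being described. The p-values measure the spread between these arrays, and 2 arrays a group limit the precision: the median 95% confidence interval of a difference between groups reached 0.45 to either side. Array medians lay between 2.94 and 3.20 and replicate arrays correlated at 0.966 to 0.994. A bacterial transcript that served as an absent control (trp, the highest of its 3 probe sets) gave 0.911 to 1.21, and values at or below 1.21 are called near background. The arrays read whole seedlings, in which fewer cells of a type and less RNA per cell cannot be told apart.

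MV against NaCl set 7 of the 9 genes apart in the same direction in both lines. The same 7 were higher under MV in each: the class I genes AT1G53540 and AT2G29500, the class III gene AT1G54050, the mitochondrial gene AT5G51440, the class V gene AT4G21870, ROF2 and HSA32. No member was lower. Among all probe sets, 8.41% were higher and 11.6% lower under MV than under NaCl in the wild type, and 10.1% were higher and 9.97% lower in the GRX line. The median difference of the 9 members was 2.06 in wild type and 2.12 in the GRX line, against 0.02 and -0.04 over all probe sets. Of the wild type calls over all probe sets 42.0% were higher, and 56.3% were once each array was centred on its median, which moved the median over all probe sets from 0.02 to 0.17. In the GRX line centring moved the higher share from 50.4% to 45.8% and the median from -0.04 to -0.09. AT5G37670 and AT1G52560 did not pass the test in either line. The members were chosen with earlier results of these data known, so their counts and medians describe the set and do not test it. Of the 3 other small heat shock genes measured, given further below, 0 were higher under MV in either line and 1 was lower in wild type.

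**Figure D1:**
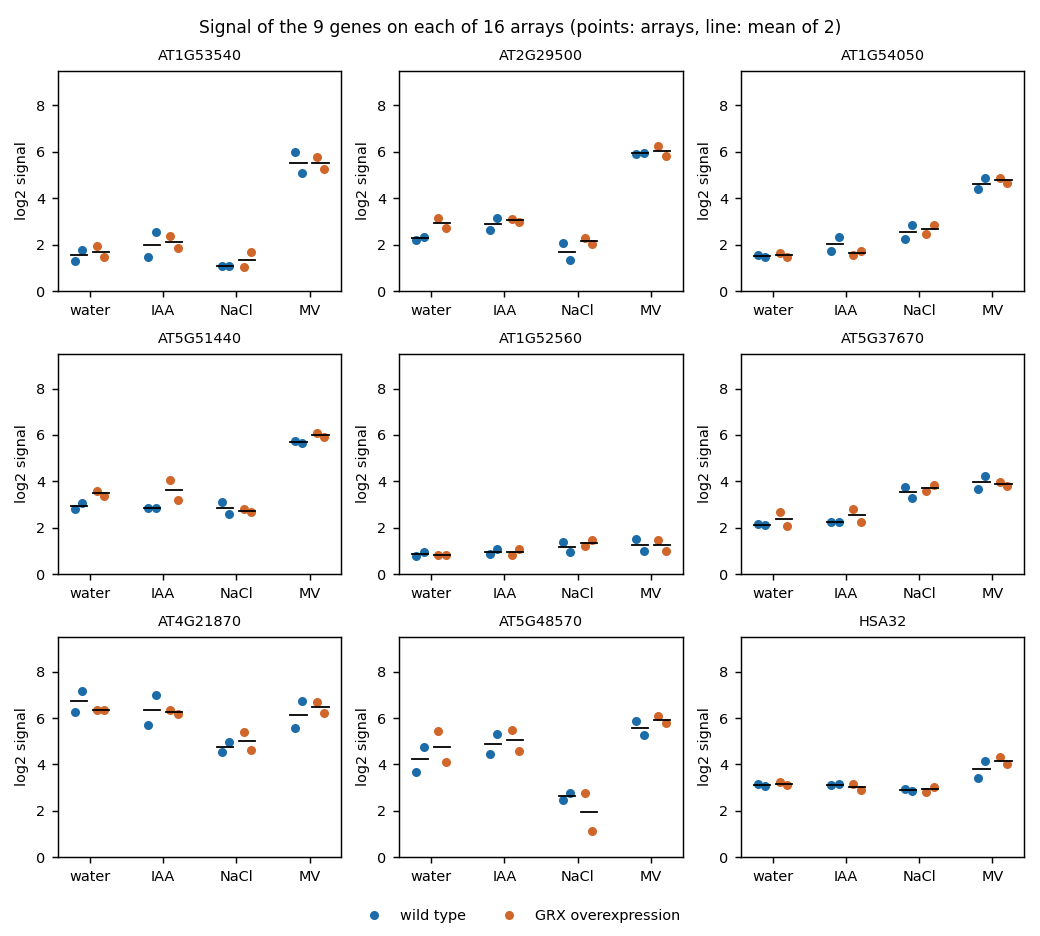
Log2 signal (y axis) of each of the 9 genes on each array, by agent (x axis), in the wild type (blue) and the GRX line (orange); points are arrays and black lines the means of 2 arrays. The MV arrays stand above all others for AT1G53540, AT2G29500, AT1G54050 and AT5G51440, whereas AT4G21870 and AT5G48570 are lowest on the NaCl arrays and AT1G52560 stays between 0.78 and 1.54.

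Both cytosolic class I genes among the members were far higher under MV than under NaCl. The other class I genes of the lists below have no probe set of 1 gene, and cross-hybridization with them was not tested. AT1G53540 (HSP17.6C) read 6.0 and 5.07 under MV against 1.09 and 1.08 under NaCl in the wild type, and 5.80 and 5.28 against 1.03 and 1.67 in the GRX line. All 4 MV arrays were far above all 4 NaCl arrays, and 3 of the 4 NaCl values are near background. With both wild type NaCl arrays near background, the fold in that line is not well measured. The mean of its MV arrays was 20.2-fold above the absent control's highest reading. That value takes no account of the spread between the MV arrays and is not a lower bound. The fitted difference was 4.46 ± 0.39 (adjusted p = 6.97e-06) in the wild type. In the GRX line, where 1 of the 2 NaCl arrays is near background, the fitted difference was 4.19 ± 0.39 (adjusted p = 1.31e-05).

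AT2G29500 (HSP17.6B), the other class I gene, had closely matched MV arrays in the wild type, 5.92 and 5.95, against 2.10 and 1.32 under NaCl. In the GRX line its arrays read 6.24 and 5.80 under MV against 2.28 and 2.05 under NaCl. No MV array came near a NaCl array in either line. The difference was 4.22 ± 0.26 (18.7-fold, adjusted p = 6.82e-07) in wild type and 3.85 ± 0.26 (14.4-fold, adjusted p = 1.64e-06) in the GRX line.

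AT1G54050 (HSP17.4-CIII) encodes a nuclear class III protein. Its MV arrays read 4.38 and 4.86 in wild type and 4.89 and 4.68 in the GRX line, and its NaCl arrays 2.27 and 2.86, and 2.46 and 2.87. The groups did not overlap, and the NaCl arrays themselves lay above the water arrays of 1.46 to 1.64. MV exceeded NaCl by 2.06 ± 0.25 in wild type seedlings (4.16-fold, adjusted p = 8.99e-05) and by 2.12 ± 0.25 in the GRX line (4.34-fold, adjusted p = 8.03e-05).

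AT5G51440 (HSP23.5) belongs to the mitochondrial small heat shock proteins. Under MV it read 5.72 and 5.66 in wild type and 6.06 and 5.92 in the GRX line. Under NaCl it read 3.13 and 2.59, and 2.82 and 2.67, without overlap. The difference was 2.83 ± 0.24 (7.12-fold, adjusted p = 6.42e-06) in wild type and 3.25 ± 0.24 (9.51-fold, adjusted p = 2.82e-06) in the GRX line.

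ROF2 (AT5G48570), the FKBP-type peptidyl-prolyl isomerase, read 5.88 and 5.27 under MV against 2.47 and 2.78 under NaCl in the wild type. In the GRX line it read 6.07 and 5.80 under MV against 2.77 and 1.15 under NaCl, so that its NaCl replicates were 1.62 apart. The lowest MV array stood above the highest NaCl array in both lines. MV exceeded NaCl by 2.95 ± 0.56 (7.72-fold, adjusted p = 0.00228) in wild type and by 3.98 ± 0.56 (adjusted p = 0.000294) in the GRX line, with the widest error of the members. NaCl replicate 2 of the GRX line is near background, and without it the difference was 3.17 (adjusted p = 0.00456 in limma).

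HSA32, which is needed for long-lasting acquired thermotolerance, read 3.43 and 4.15 under MV against 2.94 and 2.84 under NaCl in the wild type, and 4.32 and 4.02 against 2.82 and 3.05 in the GRX line. The MV arrays were above the NaCl arrays in both lines, by a smaller step than for the genes above. The difference was 0.90 ± 0.21 (1.87-fold, adjusted p = 0.00902) in wild type and 1.23 ± 0.21 (2.35-fold, adjusted p = 0.00125) in the GRX line. The wild type call was lost in limma without MV replicate 2 (0.54, adjusted p = 0.0937) or NaCl replicate 2 (0.85, adjusted p = 0.0676) of that line.

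AT4G21870 (HSP15.4), of class V, read 5.55 and 6.74 under MV against 4.54 and 4.95 under NaCl in the wild type, and 6.70 and 6.22 against 5.38 and 4.62 in the GRX line. The groups did not overlap, but the wild type MV replicates were 1.19 apart. MV exceeded NaCl by 1.40 ± 0.46 (2.64-fold, adjusted p = 0.0491) and by 1.46 ± 0.46 (2.75-fold, adjusted p = 0.0411). These calls sit at the threshold: a repeated quantile normalization gave adjusted p-values of 0.0638 and 0.0646 in limma, and leaving out any array but MV replicate 1 in the wild type, or any but NaCl replicate 1 in the GRX line, ended the call. Without wild type MV replicate 2 the difference was 0.81 (adjusted p = 0.367), and without NaCl replicate 2 of the GRX line it was 1.08 (adjusted p = 0.267).

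The peroxisomal gene AT5G37670 (HSP15.7) read 3.68 and 4.24 under MV against 3.76 and 3.30 under NaCl in the wild type, and 3.97 and 3.81 against 3.59 and 3.84 in the GRX line. Its MV and NaCl arrays overlapped in both lines. The difference was 0.43 (95% confidence interval -0.14 to 1.0, adjusted p = 0.312 in limma) in wild type and 0.18 (-0.39 to 0.74, adjusted p = 0.721) in the GRX line. Differences anywhere within these bounds, 0 among them, remained compatible with the values.

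AT1G52560 (HSP26.5), an organelle-targeted small heat shock gene, read between 0.78 and 1.54 on all 16 arrays, of which 12 are near background. Its MV arrays were 1.54 and 1.01 in wild type and 1.48 and 1.01 in the GRX line, and its NaCl arrays 1.40 and 0.98, and 1.2 and 1.46. They overlapped, and the difference was 0.08 (95% confidence interval -0.41 to 0.57) in wild type and -0.08 (-0.57 to 0.41) in the GRX line. A signal this low gives little room to see a fall.

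**Figure D2:**
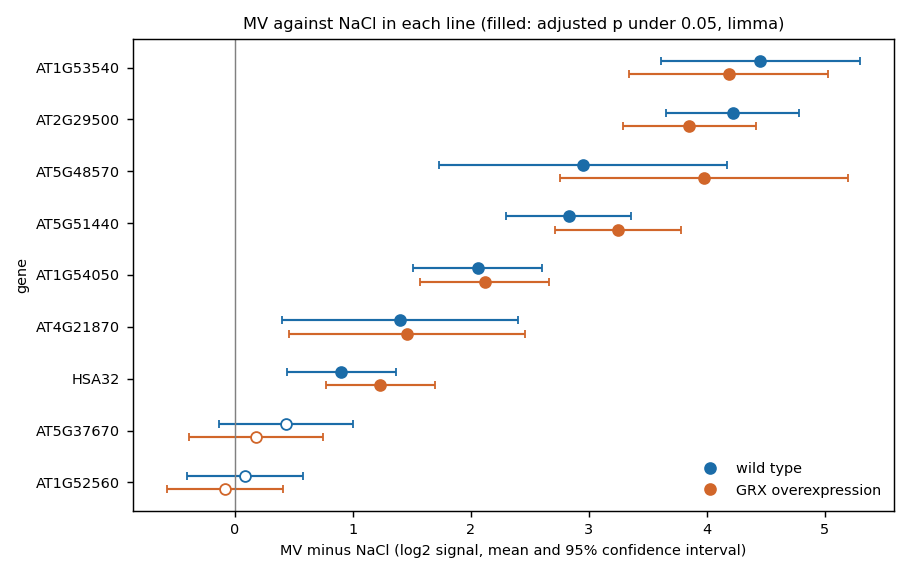
MV minus NaCl (x axis, log2 signal) for each gene (y axis) in the wild type (blue) and the GRX line (orange); points are differences of means of 2 arrays, bars 95% confidence intervals from limma, and filled points have an adjusted p under 0.05. The 7 upper genes are filled in both lines, from AT1G53540 at 4.46 and 4.19 down to HSA32 at 0.90 and 1.23, and the intervals of AT5G37670 and AT1G52560 cross 0.

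The comparison of MV with NaCl uses no water array, and water shows on which side each gene moved. MV and NaCl share the same water arrays, so the differences from water are given side by side and are not independent of each other. Against water, 5 members were higher under MV in both lines: AT1G53540, AT2G29500, AT1G54050, AT5G51440 and AT5G37670. HSA32 made 6 in the GRX line. No member was lower under MV. Over all probe sets, MV was higher than water in 2.56% and lower in 1.77% in the wild type, and higher in 1.21% and lower in 0.246% in the GRX line. Median centring moved the higher share of the wild type calls from 59.1% to 73.1%, and that of the GRX line calls from 83.1% to 75.2%. Under NaCl, AT1G54050 and AT5G37670 were higher than water in both lines, AT4G21870 was lower in wild type and ROF2 was lower in the GRX line. Of all probe sets, 7.61% were higher and 6.51% lower under NaCl than in water in wild type, and the GRX line had 7.94% higher and 7.75% lower.

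The genes fell into different patterns by these calls. AT1G53540, AT2G29500 and AT5G51440 passed the test against water under MV in both lines and under NaCl in neither. AT1G53540 read 1.32 and 1.77 in water in wild type and 1.94 and 1.47 in the GRX line. Its difference from water was 3.99 ± 0.39 under MV and -0.46 ± 0.39 under NaCl in the wild type. The same differences were 3.83 ± 0.39 and -0.36 ± 0.39 in the GRX line. The 4 water arrays lay just above background and 3 of the 4 NaCl arrays were near it, which leaves little room to measure a fall under NaCl.

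AT2G29500 read 2.22 and 2.36 in water in wild type and 3.13 and 2.71 in the GRX line. Its difference from water was 3.65 ± 0.26 (12.5-fold) and 3.10 ± 0.26 (8.57-fold) under MV, and -0.57 ± 0.26 (adjusted p = 0.190 in limma) and -0.75 ± 0.26 (adjusted p = 0.0717) under NaCl. Without wild type NaCl replicate 1 the former was -0.96 (adjusted p = 0.0459 in limma). All NaCl arrays of this class I gene were below the water arrays of their line. AT5G51440, the mitochondrial gene, read 2.82 and 3.05 in wild type water and 3.58 and 3.39 in GRX line water, and rose under MV by 2.76 ± 0.24 (6.76-fold) and 2.51 ± 0.24 (5.69-fold). Its NaCl difference was -0.07 ± 0.24 in wild type and -0.74 ± 0.24 in the GRX line (adjusted p = 0.0604). The latter passed the test in 5 alternatives, for example at 0.0142 without the IAA arrays.

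AT1G54050 and AT5G37670, of the nucleus and the peroxisome, rose under both agents. AT1G54050 read 1.55 and 1.46 in wild type water and 1.64 and 1.49 in GRX line water. It rose under MV by 3.12 ± 0.25 (8.66-fold) and 3.22 ± 0.25 (9.35-fold), and under NaCl by 1.06 ± 0.25 (2.08-fold, adjusted p = 0.0131) and 1.11 ± 0.25 (2.15-fold, adjusted p = 0.00906). The NaCl step lost its call in limma without either water replicate (adjusted p = 0.0646 and 0.0818) or NaCl replicate 2 (0.15) of the wild type, and without water replicate 2 (0.0767) or NaCl replicate 2 (0.0920) of the GRX line. The MV step kept its call in each of 12 alternatives a line.

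AT5G37670 read 2.16 and 2.10 in wild type water, and 2.68 and 2.06 in GRX line water. It rose by 1.83 ± 0.26 (3.56-fold) and 1.52 ± 0.26 (2.88-fold) under MV and by 1.40 ± 0.26 (2.64-fold) and 1.35 ± 0.26 (2.55-fold) under NaCl. It was the 1 member whose rise from water passed the test under both agents while the agents did not differ by the test in either line. In the GRX line without water replicate 2 the rise was 1.22 under MV (adjusted p = 0.167 in limma) and 1.04 under NaCl (adjusted p = 0.0532). The MV rise also lost its call there without MV replicate 1 (adjusted p = 0.0625) or MV replicate 2 (adjusted p = 0.0673).

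AT4G21870 and ROF2 differed between MV and NaCl with lower values under NaCl and no call under MV against water. AT4G21870 read 6.26 and 7.16 in wild type water and 6.33 on both GRX line water arrays. Its NaCl difference was -1.97 ± 0.46 in the wild type (3.91-fold lower, adjusted p = 0.0119) and -1.33 ± 0.46 in the GRX line (adjusted p = 0.0725). All NaCl arrays were below all water arrays in both lines. The wild type call was lost in limma without water replicate 2 (-1.52, adjusted p = 0.125) or NaCl replicate 1 (-1.76, adjusted p = 0.0911). Its MV difference was -0.56 ± 0.46 and 0.13 ± 0.46, and MV and water arrays overlapped.

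ROF2 read 3.69 and 4.74 in wild type water and 5.43 and 4.10 in GRX line water, replicates that lay 1.04 and 1.33 apart. Its NaCl difference was -1.59 ± 0.56 in the wild type (adjusted p = 0.0861) and -2.81 ± 0.56 in the GRX line (adjusted p = 0.00413). Every NaCl array was below every water array. Under MV every array was above the water arrays of its line, by 1.36 ± 0.56 (adjusted p = 0.259 in limma) and 1.17 ± 0.56 (adjusted p = 0.557) in the mean, and neither passed the test. The NaCl call in the GRX line was lost without water replicate 1 (-2.15, adjusted p = 0.0594) or NaCl replicate 2 (-2.0, adjusted p = 0.0546) of that line.

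HSA32 read 3.17 and 3.05 in wild type water and 3.23 and 3.11 in GRX line water. Its MV difference was 0.68 ± 0.21 in the wild type (adjusted p = 0.111) and 1.0 ± 0.21 in the GRX line (2.0-fold, adjusted p = 0.0365), with every MV array above every water array. Without wild type MV replicate 1 the wild type difference was 1.04 and passed the test (adjusted p = 0.0247 in limma), and without MV replicate 2 it was 0.32 (adjusted p = 0.542). The call in the GRX line was lost in 7 of 13 alternatives, with adjusted p-values in limma up to 0.304. Under NaCl the difference was -0.22 ± 0.21 and -0.23 ± 0.21. AT1G52560 differed from water by 0.40 ± 0.23 and 0.43 ± 0.23 under MV and by 0.32 ± 0.23 and 0.51 ± 0.23 under NaCl, none past the test. Its MV and NaCl arrays all lay above the water arrays of their line, but 12 of its 16 arrays are near background.

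**Figure D3:**
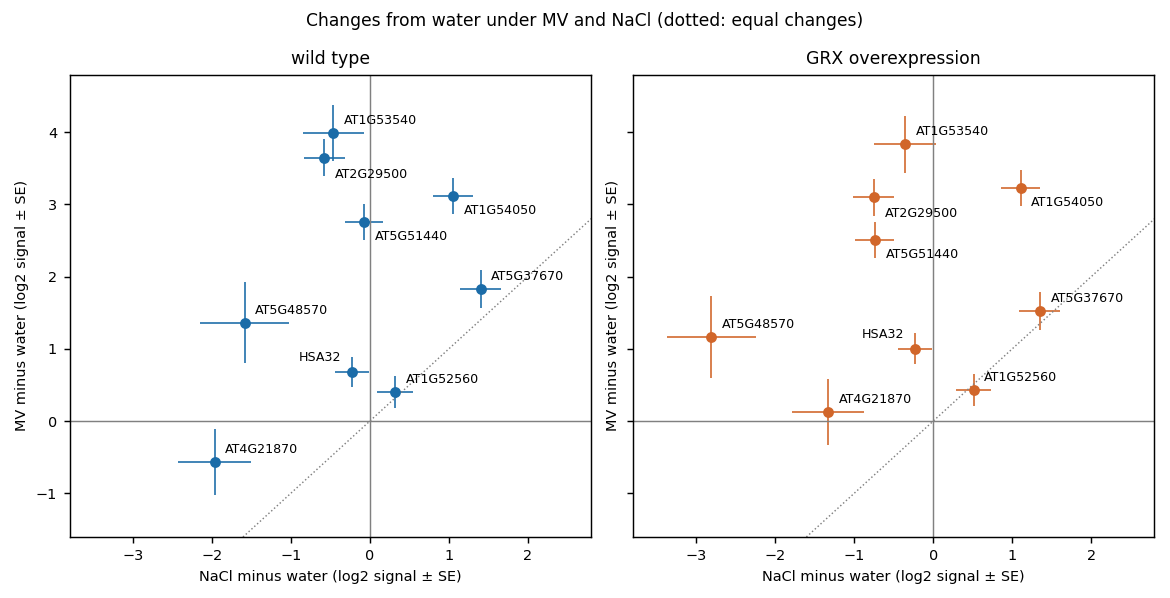
MV minus water (y axis) against NaCl minus water (x axis), both in log2 signal, for the 9 genes in the wild type (left) and the GRX line (right); points are differences of means of 2 arrays, bars SE, and the dotted line marks equal changes. Both differences of a point share the same water arrays. AT1G53540 lies at 3.99 and 3.83 on the MV axis with NaCl values of -0.46 and -0.36, AT5G37670 lies close to the dotted line, and ROF2 and AT4G21870 lie to the left.

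With both lines averaged, a comparison of 4 arrays against 4 that was added after seeing the data, the same 7 members were higher under MV than under NaCl, and 6 were higher under MV than in water, HSA32 among them at 0.84 ± 0.15 (adjusted p = 0.00407 in limma). NaCl was higher than water for AT1G54050 and AT5G37670, and lower for AT2G29500 (-0.66 ± 0.18), AT4G21870 (-1.65 ± 0.33) and ROF2 (-2.20 ± 0.40). The AT2G29500 call (adjusted p = 0.0170) was lost without any 1 of 4 arrays, for example at -0.47 (adjusted p = 0.0804) without wild type NaCl replicate 2. The rates over all probe sets were 14% higher and 16.2% lower for MV against NaCl, 4.13% and 3.35% for MV against water, and 13.3% and 12.3% for NaCl against water. ROF2 under MV, at 1.26 ± 0.40 above water, had an adjusted p of 0.0795 in limma. It passed the test in 3 alternatives, at 0.0475 with the brighter probe sets, 0.0388 with array weights and 0.0401 with only the compared arrays. AT1G52560 was 0.41 ± 0.16 above water under NaCl (adjusted p = 0.0792 in limma) and passed in 3 alternatives, the lowest at 0.0327. Under MV it was 0.41 ± 0.16 above water (adjusted p = 0.162).

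The GRX line and the wild type were not told apart at any member. None of the 9 passed limma's test between the lines in water, IAA, NaCl or MV, and none had a different MV minus NaCl, MV minus water or NaCl minus water between the lines. At an unadjusted p under 0.05 there were 2 in water, 1 in IAA and 0 in NaCl, MV and all 3 differences of response. The shares of all probe sets at that unadjusted threshold were 1.12% in water, 7.32% in IAA, 4.48% in NaCl, 5.33% in MV, and 5.86%, 2.2% and 2.16% for the line differences in MV minus NaCl, MV minus water and NaCl minus water. With adjusted p-values 0% were called in each of these 7 comparisons. In water the 2 were AT2G29500, higher by 0.64 ± 0.26 in the GRX line, and AT5G51440, higher by 0.55 ± 0.24. For these 2 genes both GRX line water arrays lay above both wild type water arrays, which held for 16.8% of all probe sets. The IAA member was AT5G51440, with 4.06 and 3.21 in the GRX line against 2.84 and 2.87 in the wild type.

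The line difference in MV minus NaCl ran from -0.37 for AT2G29500 to 1.03 for ROF2. Its 95% confidence interval was -1.46 to 0.92 for AT1G53540, -0.33 to 1.17 for AT5G51440 and -0.70 to 2.76 for ROF2. With 2 arrays a group, line differences anywhere within these bounds remained compatible with the values.

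IAA left all 9 members without a call in both lines, where 0.207% and 0.215% of all probe sets were called in wild type and the GRX line. At an unadjusted p under 0.05 limma gave 1 member in wild type and 0 in the GRX line, where 12.1% and 4.26% of all probe sets lay under it, so that 1 of 9 is near the background. The 1 was AT2G29500, at 2.63 and 3.14 under IAA against 2.22 and 2.36 in water, a difference of 0.60 ± 0.26. Replicate 2 was the higher of the wild type IAA arrays in 8 of 9 members, a count not made over all probe sets. That array also had the widest gap between the actin control's 3′ and 5′ probe sets, a sign of RNA quality, at 6.10. The gap was 4.43 on IAA replicate 2 of the GRX line and 1.36 to 1.85 on water arrays, and its part in the IAA values was not tested. It was 1.56 to 1.73 on the MV arrays and 1.13 to 1.5 on the NaCl arrays, and its part in the difference between MV and NaCl was not tested either.

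Over the 8 group means, a description from groups that share arrays' processing and 2 lines of the same treatments, the members did not all follow each other. The Pearson correlation of a member with the mean of the other 8, each standardised, was 0.994 for AT1G53540, 0.982 for AT2G29500, 0.974 for AT5G51440, 0.959 for HSA32 and 0.887 for AT1G54050. It was 0.592 for ROF2, 0.525 for AT5G37670, 0.379 for AT1G52560 and 0.200 for AT4G21870. The 4 lowest are the gene near background and 3 of the 4 genes that NaCl moved past the test in at least 1 line.

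The 6 other genes with the profile most like the members' mean over the 8 groups were AT1G16670, AT4G21323, AT2G17850, AT5G10830, Fes1A and AT4G19880, with correlations of 0.988 to 0.993. They were picked by these same group means, so their differences between MV and NaCl, here and below, describe the choice and test nothing. AT1G16670 encodes a receptor-like cytoplasmic kinase and read 6.72 and 6.61 under MV against 5.23 and 5.26 under NaCl in the wild type, a difference of 1.42 ± 0.20. AT5G10830 differed by 2.07 ± 0.30 and 2.08 ± 0.30 in wild type and the GRX line. AT2G17850 did not pass the test in either line, and its MV replicates read 5.11 and 1.79 in the GRX line.

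AT4G21323 is also the neighbour of HSA32 in the RefSeq gene order, and the bounds of the genes overlap there. It read 2.37 and 2.21 under MV in wild type and 2.31 and 2.76 in the GRX line, against 0.95 to 1.39 on the NaCl arrays, 3 of 4 of them near background. The fitted difference was 1.27 ± 0.19 (adjusted p = 0.000382 in limma) and 1.30 ± 0.19 (adjusted p = 0.000354). Any part of the overlap in the signal of either probe set was not tested.

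Other chaperones give the setting of these genes, though few have a probe set named for 1 gene here. Of the lists drawn up, 3 of 10 other small heat shock genes, 0 of 21 heat shock factors, 2 of 29 large chaperones and 5 of 19 co-chaperones and heat targets were measured. Under MV against NaCl, 3 of the 5 co-chaperones were higher in each line (median 0.93 and 0.64), as were both large chaperones (1.66 and 1.45). Of the 3 small heat shock genes none was higher and 1 was lower in wild type (0.08 and 0.13). Over all probe sets, 8.41% were higher and 11.6% lower in wild type, and 10.1% and 9.97% in the GRX line. The heat shock transcription factors were therefore not analysed here, and neither were HSP101, HSP90.1 or HSP21.

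Fes1A, a nucleotide exchange factor of cytosolic HSP70, read 6.82 and 6.91 under MV against 4.18 and 4.4 under NaCl in the wild type. It was higher by 2.57 ± 0.20 in that line and by 2.40 ± 0.20 in the GRX line. Hop3, one of the co-chaperones that bridge HSP70 and HSP90, was higher by 1.70 ± 0.17 and 1.58 ± 0.17, with 1 of the 2 NaCl arrays of each line near background. Hop2 was higher by 0.93 ± 0.16 and 0.64 ± 0.16. Fes1A and Hop3 were also higher under MV than in water in both lines. The Hop2 call in the GRX line was lost in limma without its NaCl replicate 1 (adjusted p = 0.108) or MV replicate 2 (adjusted p = 0.0969). Hop1 and the HSP90 co-chaperone AT4G02450 did not pass the test.

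Both measured HSP70 genes of the cytosol were higher under MV than under NaCl and lower under NaCl than in water. Hsp70-2 read 5.74 and 5.52 in wild type water, 3.21 and 2.84 under NaCl and 4.85 and 5.0 under MV. Its NaCl arrays lay below all others, and its MV arrays lay below the water arrays without passing the test in either line (-0.70 ± 0.25, adjusted p = 0.168, and -0.85 ± 0.25, adjusted p = 0.158). With both lines averaged it was lower under MV than in water (-0.78 ± 0.18, adjusted p = 0.0177 in limma), with all 4 MV arrays below all 4 water arrays. MV exceeded NaCl by 1.90 ± 0.25 and 1.54 ± 0.25 in wild type and the GRX line, and NaCl differed from water by -2.60 ± 0.25 and -2.38 ± 0.25. AT3G09440 differed from water under NaCl by -1.39 ± 0.19 and -1.35 ± 0.19, and under MV by 0.03 ± 0.19 and 0.02 ± 0.19. Cytosolic HSP70 genes are close in sequence, and cross-hybridization between them was not tested.

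The 3 other small heat shock genes were not higher under MV by the test. AT2G19310, of class IV, was lower under MV than under NaCl in the wild type, at 2.96 and 3.27 against 3.67 and 3.74 (-0.59 ± 0.15, adjusted p = 0.0120 in limma), and differed by -0.35 ± 0.15 without passing the test in the GRX line. That call was lost in 6 alternatives, for example with median centring (-0.44, adjusted p = 0.0819) and without wild type MV replicate 1 (-0.43, adjusted p = 0.122). ATHSP22.0 of the endoplasmic reticulum read 0.96 to 1.70 and AT5G47600 of class VI read 0.90 to 1.47 over all arrays, with 4 and 12 of 16 arrays near background, and neither was called.

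**Figure D4:**
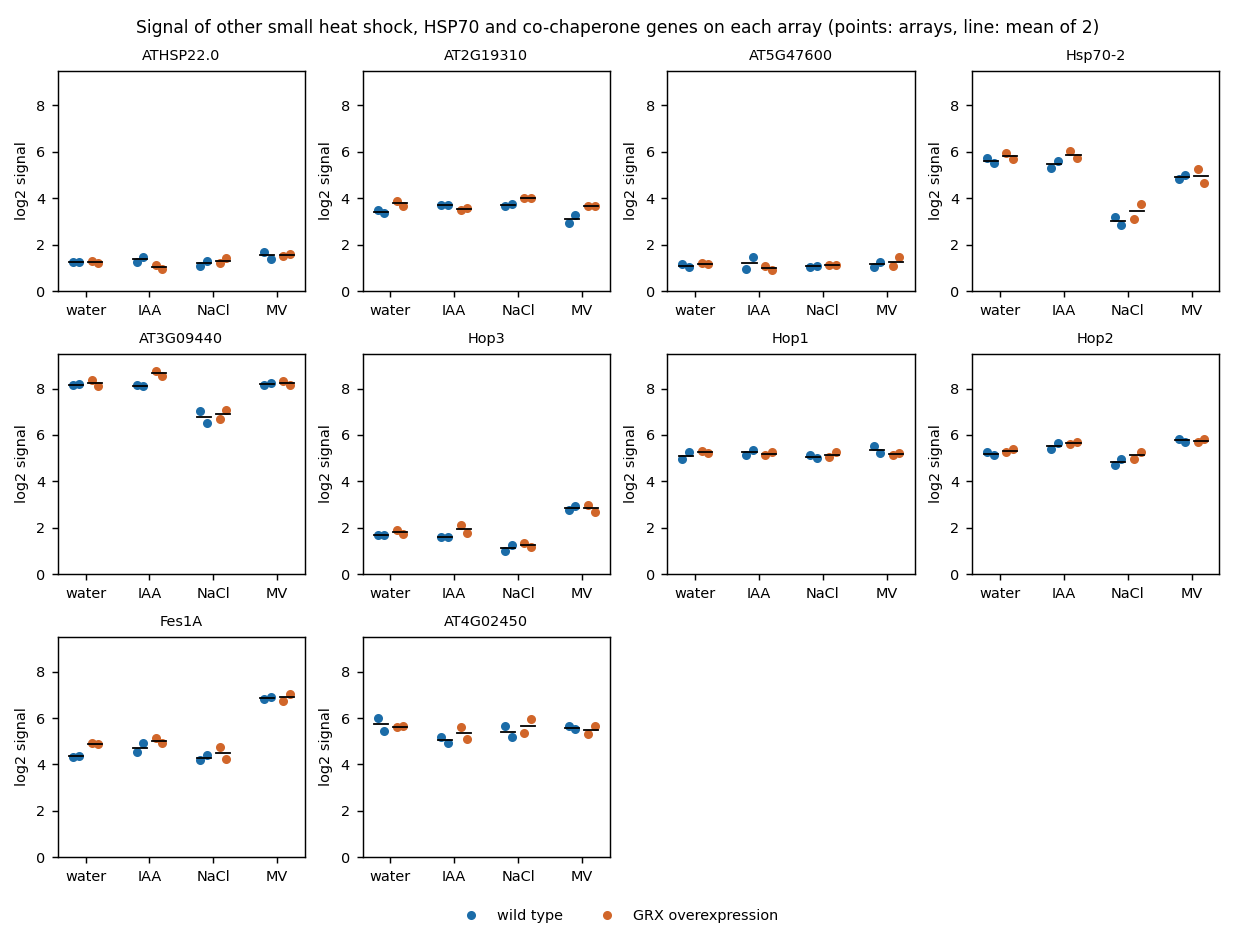
Log2 signal (y axis) on each array, by agent (x axis), of the 10 other small heat shock, HSP70 and co-chaperone genes measured, in the wild type (blue) and the GRX line (orange); points are arrays and black lines the means of 2 arrays. Fes1A and Hop3 are highest on the MV arrays, Hsp70-2 and AT3G09440 are lowest on the NaCl arrays, and ATHSP22.0 and AT5G47600 stay below 2 on every array.

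Markers of tissue were few: 3 of 5 root markers, 1 of 7 seed maturation markers and 0 of 7 leaf markers were measured. PYK10, an abundant root protein, read 8.62 to 9.69 on all arrays and did not differ between MV and NaCl by the test. The seed marker OLEO3 read 0.96 to 1.86. The summed log2 level of the 3 root markers ran from 11.5 to 12.4 under MV and from 12.2 to 12.5 under NaCl in the wild type, and from 13.4 to 13.6 under MV and from 12.01 to 12.88 under NaCl in the GRX line. The root hair gene EXPA7 was lower under NaCl than in water in both lines (-0.66 ± 0.19, adjusted p = 0.0321, and -0.61 ± 0.19, adjusted p = 0.0421 in limma). In the GRX line it was higher under MV than under NaCl by 0.77 ± 0.19 (adjusted p = 0.0109) and differed from water under MV by 0.15 ± 0.19 without a call. In the wild type its MV arrays differed from NaCl by 0.13 ± 0.19 and from water by -0.53 ± 0.19, neither called. EXPA7 is a low signal, at 1.14 to 2.30 over all arrays, with 1 of 16 near background. The other root hair gene measured, EXPA18, had means of 1.37 under MV and 1.66 under NaCl in the wild type. In the GRX line its means were 2.02 and 1.67, and its NaCl replicates there read 1.15 and 2.19. The part of tissue make-up in the members' differences was not tested.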

How the data were processed

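The deposited log2 values are summaries of probe sets, with a column for each array, and the submitters' processing notes name RMA with no version. The software and genome build behind them are not given in the labels or file headers. The scale was taken as log2 because bacterial transcripts added at 1.5, 5, 25 and 100 pM rose with slopes of 0.833 to 1.04 on log2 concentration. RMA makes the arrays' distributions alike, which can hide a shift shared by most genes. Of 22810 probe sets, 64 controls were left out. The platform annotation gives 13513 probe sets 1 gene, 503 several and 8730 none here, and 13484 of the 13513 matched a locus in RefSeq's table of the TAIR10.1 assembly.

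A model of 8 group means was fitted with limma 3.58.1 in R 4.3.3 (lmFit, eBayes, 8 residual and 4.52 prior degrees of freedom), two-sided, for 18 comparisons. The code was also run on simulated data with planted changes and independent noise, which is no support for the calls given here. All members are named, with up to 4 genes past the test per further list by the size of MV minus NaCl and the 6 most alike profiles; the other measured list genes and the neighbours were added after their values were seen. Members, lists and tests were chosen with earlier results of these data known. Alternatives changed the normalization, centring, brightness filter, variance prior, array weights, arrays in the fit, replicate block or probe set suffixes, or left out single arrays.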

Additional observations from a re-analysis of the deposited data

How the results depend on the processing

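In both lines, 5 of the 7 members called in MV minus NaCl (AT1G53540, AT2G29500, AT1G54050, AT5G51440 and ROF2) kept their direction and their call in each of 12 or 13 alternatives a line, and the count of 7 stayed within 1.5-fold. HSA32 did so in the GRX line and in 10 of 13 in the wild type, and AT4G21870 in 9 and 8 of 13. Over all the members' results and settings, 1053 kept direction and side of the threshold, 36 lost the call, 22 gained it and 14 changed sign, with causes not tested unless given here.

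A brighter-probe filter keeps 11453 probe sets and drops 4 members by construction, AT1G53540, AT1G54050, AT1G52560 and AT5G37670. It left 2 members higher under MV than water in the wild type and 3 in the GRX line, 0 higher under NaCl in either line or in their mean, and 3 lower under NaCl in the GRX line. Members lower under NaCl numbered 2 in the wild type with array weights or only the compared arrays. In the GRX line they numbered 2 with an intensity trend, 3 with array weights or without the IAA arrays, and 4 with only the compared arrays.

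Without single arrays, members higher under NaCl ranged from 1 to 2 in the wild type and 0 to 2 in the GRX line, and lower ones from 0 to 1 in each. Signs that changed were all of uncalled differences. AT5G51440 ranged from -0.34 to 0.19 for NaCl minus water in the wild type. AT1G52560 ranged from -0.18 to 0.35 (wild type), -0.32 to 0.15 (GRX line) and -0.13 to 0.13 (mean of lines) for MV minus NaCl. AT4G21870 ranged from -1.16 to 0.032, -0.12 to 0.37 and -0.52 to 0.080 for MV minus water in the same order.

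Counts over all probe sets moved more. Without single arrays they ran from 2801 to 3596 (wild type, 4560 with all) and 2874 to 3368 (GRX line, 4572) for MV minus NaCl, 300 to 837 (984), 86 to 335 (331) and 989 to 1628 (mean of lines, 1701) for MV minus water, 1754 to 2054 (3211) and 1984 to 2565 (3569) for NaCl minus water, and 12 to 3372 (47) and 15 to 30 (49) for IAA minus water. The 3372, and 1922 against 0 between the lines in IAA, came without wild type IAA replicate 1; the lowest there was 0. Between the lines in MV they ran from 0 to 7, with 9 under median centring and 1 with an intensity trend. Without the IAA arrays MV minus water gave 1489 and 570. Array weights gave 958 (GRX line) and 2807 (mean) for MV minus water, 5095 for NaCl minus water in the wild type, and 17 and 77 for IAA. IAA gave 31 in the wild type with quantile normalization, 16 and 29 with the brighter filter and 0 with only the compared arrays.

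Replicate numbers are shared by title only, and same-numbered deviations correlated at -0.0956 to 0.363. With a replicate block, 2 members were lower under NaCl in the GRX line and 1 probe set differed between the lines in MV, and the members' other counts stayed the same. With 1 probe set per member, a mean over probe sets was not applicable, and promoter motifs were not run. With 2 arrays a group, differences of HSA32's size lie near the limit of the test, and probe sets near background cannot show a fall.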

Other observations

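The genes next to the members on the chromosome were read as a further description, chosen after seeing the data. Of 18 neighbours in the RefSeq gene order, 8 have a probe set of 1 gene, and AT4G21323, beside HSA32, was the 1 that differed between MV and NaCl in both lines. On the other side of HSA32, AT4G21310 was lower under MV in the GRX line (-0.77 ± 0.24, adjusted p = 0.0349 in limma). ARLA1A, which encodes a small GTPase of the ARF-like family and lies beside AT5G37670, was lower under MV in the wild type (-0.97 ± 0.23, adjusted p = 0.00893), at 3.53 and 3.73 against 4.43 and 4.77 under NaCl. AT1G52550, beside AT1G52560, was higher in the GRX line by 0.58 ± 0.19 (adjusted p = 0.0473 in limma). Among all probe sets, 8.41% were higher and 11.6% lower under MV than under NaCl in the wild type. In the GRX line the shares were 10.1% and 9.97%. The share called in both lines was not counted, and the neighbour calls are a description only.

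Most or all members had the same replicate higher within some groups. The share of all probe sets with that direction was not counted, so a direction shared by the whole array cannot be told from one of the members. Replicate 1 was the higher array for all 9 members in the GRX line under MV, since replicate 2 was higher in 0 of 9, and replicate 2 was higher in 1 of 9 in that line in water. The median gap in the former group was -0.30 (replicate 2 minus 1).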
